A study of Homo sapiens with 12 samples.

Results

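The cytosolic ribosomal protein genes were taken as the protein-coding genes whose symbols follow the RPL and RPS numbering, together with RPSA and the stalk genes RPLP0, RPLP1 and RPLP2. RPS27L, the Y-linked copies of RPS4 and the RPS6K kinases were left out. This gave 83 of the 60675 genes in the count tables, 52 coding for large-subunit and 31 for small-subunit proteins, spread over 21 chromosomes. 6 of the large-subunit members (RPL3L, RPL7L1, RPL10L, RPL22L1, RPL26L1 and RPL39L) are paralogues of another member.

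RNA-seq of polyadenylated RNA had been run on LNCaP:C42 cells (C4-2), a castration-resistant derivative of the androgen-dependent prostate cancer line LNCaP, and on libraries labelled LNCaP. All 12 libraries, including the controls, came from cells given 1 nM of the synthetic androgen R1881, and treatment lasted 72 h. Cells received namoline, a KDM1A inhibitor, at 50 µM, or TCE-5002, selective for another histone demethylase (KDM7A), at a dose that the sources give differently (100 µM in the series text, less in the methods). The authors state that TCE-5002 also inhibits the demethylases KDM7B (PHF8) and KDM2A, and the targets cannot be told apart here. There were 6 groups of 2 libraries. C4-2 cells gave 4 of them (R1881 alone, added namoline, added TCE-5002, and both inhibitors together, called the combination), and LNCaP gave 2 (R1881 alone, and the combination). The libraries labelled LNCaP differed from C4-2 in lineage markers, with 8 epithelial markers summing to 237 to 242 CPM (counts scaled to the effective library size) against 2290 to 2430 in C4-2 under R1881 alone. Their 10 mesenchymal markers summed to 893 to 1000 CPM with R1881 alone against 84.7 to 87.7 in C4-2, so they are called LNCaP-labelled libraries here. The 8 luminal prostate markers summed to 2520 to 2590 CPM in C4-2 with R1881 alone, 3470 to 3730 with namoline, 4920 to 5000 with TCE-5002 and 893 to 988 with the combination, while 5 blood cell markers stayed at or under 4.05 CPM. The part of cell state in the values below was not tested. In the LNCaP-labelled combination, the alignment named in the header of replicate 1 refers to namoline only, while its title names both inhibitors, so results of that group are also given without that library.

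Ribosomal proteins build the small subunit, which decodes mRNA, and the large subunit, which joins amino acids and releases the growing chain through its exit tunnel. Their genes are housekeeping genes whose mRNAs are among the most abundant in dividing cells and mostly begin with a terminal oligopyrimidine (TOP) tract, a run of C and U at the cap through which mTORC1 and LARP1 control their translation. When ribosome assembly is disturbed, free RPL5 and RPL11 bind MDM2 and stabilise p53.

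RefSeq start sites (GRCh38.p14) were available for 66 of the 83 members. In 48 of these 66 (72.7%) at least 1 annotated start lay within an unbroken run of 7 or more C or T on the transcribed strand, against 7.4% of all 27305 genes in the same table. The windows below are shown for 6 members named in the results, 2 of them without such a run, and for 3 paralogue pairs. Each runs from 15 bases before the start to 15 bases from it, with the pyrimidine run that holds the start in capitals.
RPL7A (chr9:133348203-133348232, plus strand): ccacaaTTCCCTTTCCTTTCTCTCTCCTCC
RPL36A (chrX:101390996-101391025, plus strand): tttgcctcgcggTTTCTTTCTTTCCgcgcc
RPL11 (chr1:23691791-23691820, plus strand): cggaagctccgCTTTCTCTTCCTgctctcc
RPS19 (chr19:41860240-41860269, plus strand): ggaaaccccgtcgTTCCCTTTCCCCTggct
RPS29 (chr14:49598696-49598725, minus strand): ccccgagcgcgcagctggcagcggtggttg
RPL7L1 (chr6:42879601-42879630, plus strand): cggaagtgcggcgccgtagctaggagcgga
RPL22 (chr1:6199581-6199610, minus strand): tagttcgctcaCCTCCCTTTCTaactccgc
RPL22L1 (chr3:170870181-170870210, minus strand): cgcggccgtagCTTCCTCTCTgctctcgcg
RPL10 (chrX:154398362-154398391, plus strand): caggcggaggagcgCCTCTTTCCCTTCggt
RPL10L (chr14:46651767-46651796, minus strand): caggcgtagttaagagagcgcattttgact
RPL26 (chr17:8383179-8383208, minus strand): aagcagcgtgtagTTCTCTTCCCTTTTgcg
RPL26L1 (chr5:172958714-172958743, plus strand): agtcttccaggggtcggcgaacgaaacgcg
The run around the RPL7A start spans 25 bases and continues past the window. RPL22 and RPL22L1 both start within such a run (11 and 10 bases), whereas RPL7L1, RPL10L and RPL26L1 show none at the start in the table and that of RPS29 has 2 bases, too few to be marked. A match describes these letters only and says nothing of the use of a start in these cells.

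By group mean, the summed share of all gene counts held by the members was lowest in C4-2 with R1881 alone (4.78%), although the lowest single library was replicate 2 of namoline, and highest in the LNCaP-labelled combination (9.78%). In C4-2 with R1881 alone the share was 5.00% in replicate 1 and 4.57% in replicate 2. With namoline it was 5.57% and 4.56%, so that the replicates spanned the R1881 libraries. With TCE-5002 it was 6.80% and 6.15%, and with the combination 5.44% and 5.52%. Both groups lay above both R1881 libraries, and both TCE-5002 libraries above both combination libraries. The LNCaP-labelled libraries held 7.45% and 7.67% with R1881 alone and 9.27% and 10.3% with the combination, without overlap. The exact binomial 95% intervals were narrow, for example 4.99% to 5.01% for replicate 1 of C4-2 with R1881 alone, and cover counting error only. With 2 libraries against 2, an exact permutation test cannot go below p = 0.333, so shares are given without a test.

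**Figure D1:**
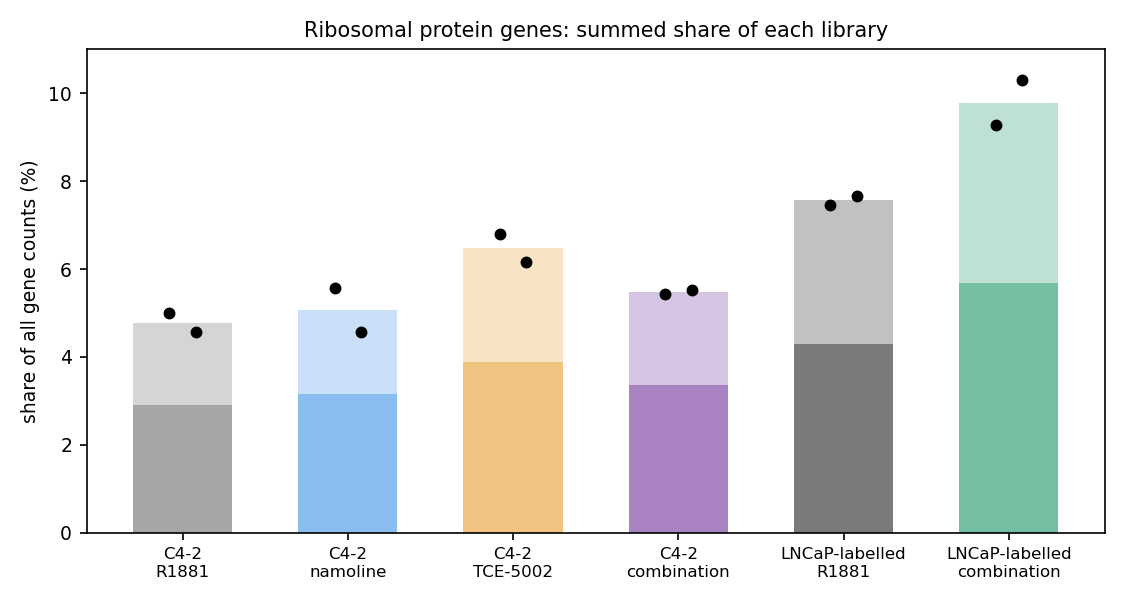
Summed share of all gene counts (percent, y axis) held by the 83 genes in the 6 groups. Points are single libraries and bars the mean of 2, with large-subunit genes in the darker and small-subunit genes in the lighter part. The C4-2 groups run from 4.56% to 6.80% and the LNCaP-labelled ones from 7.45% to 10.3%.

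Relative to R1881 alone, the share was 1.06 ± 0.164-fold with namoline, 1.35 ± 0.128-fold with TCE-5002 and 1.15 ± 0.0739-fold with the combination in C4-2, and 1.29 ± 0.0986-fold with the combination in the LNCaP-labelled libraries (ratio of group means with the SD carried over from 2 libraries each). Leaving out replicate 1 of the namoline group turned its ratio to 0.954. Mitochondrial transcripts, whose level also moves the denominator, made up 5.57% to 10.1% of C4-2 libraries and 1.91% to 2.42% of LNCaP-labelled ones. With TCE-5002 and with the combination in either line, the share of each subunit lay above both R1881 libraries of that line. With namoline the small-subunit genes held 2.13% and 1.69%, against 1.99% and 1.78% with R1881 alone. The count ratio of large- to small-subunit genes ran from 1.47 to 1.71 in C4-2 and from 1.30 to 1.41 in the LNCaP-labelled libraries. It was 1.61 and 1.71 with namoline against 1.51 and 1.56 with R1881 alone. These are shares of polyadenylated RNA, and the amount of RNA per cell was not measured.

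Namoline alone was compared with R1881 to ask what KDM1A inhibition does in C4-2. RPL7A, a core large-subunit protein, had 2018 and 1743 CPM with namoline against 1013 and 980 with R1881 alone, and the groups did not overlap (log2 fold change 0.90 ± 0.12 SE, edgeR adjusted p = 4.66e-05). RPL7L1, a relative of RPL7 that acts in ribosome assembly, rose from 219 and 224 CPM to 337 and 370 (0.66 ± 0.12, adjusted p = 0.000534). RPL3L, the striated-muscle relative of RPL3, was low throughout, with 2.25 and 1.76 CPM against 3.79 and 4.08 with namoline (0.94 ± 0.30, adjusted p = 0.0234), and its call was lost in 6 alternatives, among them each single library left out. RPL10L fell from 13.5 and 11.7 CPM to 5.92 and 3.66, the only member past 2-fold, against 6.88% of all genes falling as far (log2 fold change -1.41 ± 0.23, adjusted p = 0.000281). RPL26L1 also fell, from 56.6 and 50.5 CPM to 37.5 and 36.5 (-0.55 ± 0.12, adjusted p = 0.00282).

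In all, 82 of the 83 members passed the filter on low counts in C4-2, RPL39L being the exception. With namoline 19 of the 82 rose and 2 fell at an adjusted p under 0.05, against 18.7% and 16.3% of the 17702 genes tested. The share of members that rose (23.2%) was thus near the background, while few fell. None rose past 2-fold, as 5.17% of all genes did, and in 43 members both namoline libraries lay above both R1881 libraries, as in 37.2% of all genes. The median log2 fold change over the members was 0.20, against -0.00 over all genes tested. The members differed between the namoline replicates themselves by a median of 0.28 on the log2 scale. Without replicate 1 of namoline the median was 0.03 with 4 members rising, and without replicate 2 it was 0.32 with 13.

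TCE-5002 alone gave the broadest rise in C4-2. At an adjusted p under 0.05, 66 of 82 members rose and 1 fell, against a background of 19.9% and 16.7% of all genes tested. The median log2 fold change was 0.56, with quartiles of 0.38 and 0.68. RPL7A was the only member to rise past 2-fold, as did 5.04% of all genes, with 2110 and 2031 CPM against 1013 and 980 (1.05 ± 0.12, adjusted p = 1.63e-05). RPL23A, which lies at the tunnel exit, rose from 387 and 378 CPM to 750 and 689 (0.91 ± 0.11, adjusted p = 3.28e-05). RPS28, a small protein of the small-subunit head and a Diamond-Blackfan anaemia gene, rose from 212 and 232 CPM to 384 and 424 (0.86 ± 0.11, adjusted p = 4.27e-05). In each of these genes both treated libraries lay above both R1881 libraries, as in 71 of the 82 members and 32.1% of all genes.

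RPL10L again fell past 2-fold with TCE-5002, as did 6.8% of all genes, to 5.44 and 6.86 CPM (-1.03 ± 0.22, adjusted p = 0.00214). The 15 members that did not pass included RPL5 (878 and 670 CPM against 808 and 715, log2 fold change 0.02 ± 0.14, adjusted p = 0.916) and RPS6, the S6 kinase substrate (0.28 ± 0.14, adjusted p = 0.146). RPL11, the partner of RPL5, had 751 and 554 CPM against 443 and 403 and rose (0.63 ± 0.14, adjusted p = 0.00322). Among the small-subunit genes 28 of 31 rose, and 13 of 14 in the head of the subunit. The TCE-5002 replicates stood farthest apart of all groups over all genes, with a chi-square per gene of 27.9 against 3.61 to 9.76 elsewhere, and differed along transcript GC content (rho -0.79 across genes). The count of rising members was 33 without replicate 2 of R1881 and 76 without replicate 2 of TCE-5002.

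**Figure D2:**
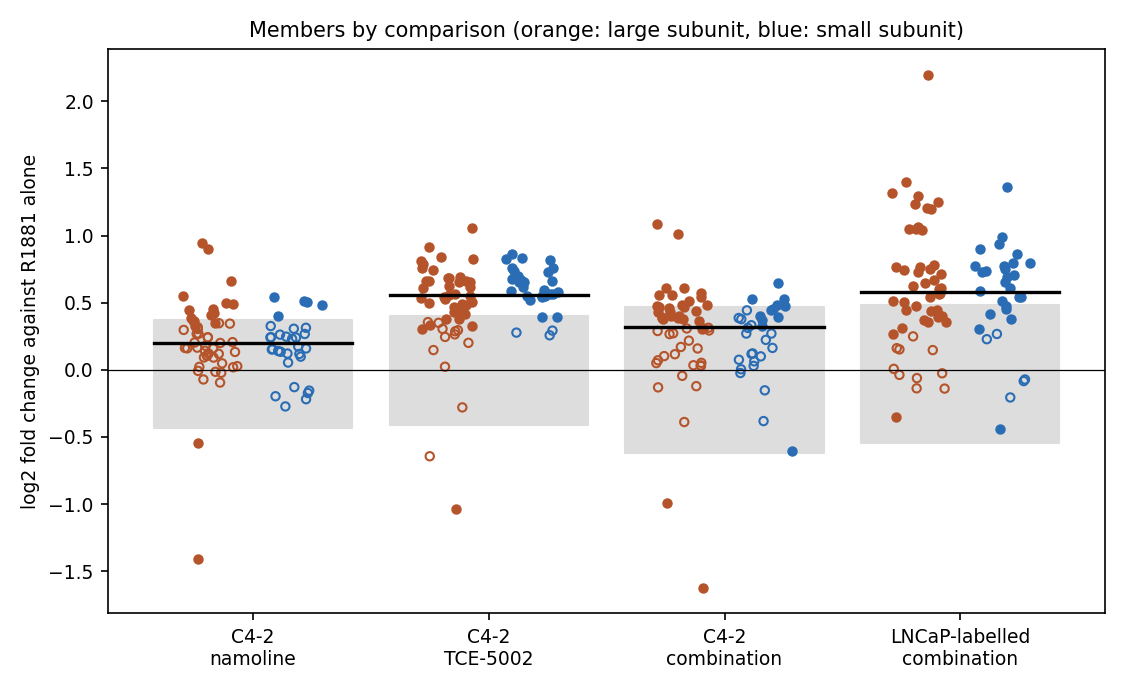
Log2 fold change against R1881 alone (y axis) of each member tested in the 4 comparisons, with large-subunit genes in orange and small-subunit genes in blue. Filled points passed an adjusted p under 0.05, black lines mark the members' medians (0.20, 0.56, 0.32 and 0.58) and grey bands the quartile range of all genes tested.

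The combination in C4-2 was compared with R1881 to ask what joint inhibition does. At an adjusted p under 0.05, 37 of 82 members rose and 3 fell, against 24.8% and 25.6% of all genes tested, with a median log2 fold change of 0.32 against -0.03. Both treated libraries lay above both R1881 libraries in 62 of the 82 members and 40.3% of all genes. RPL36A and RPL17 were the 2 members that rose past 2-fold, as did 8.87% of all genes. RPL36A had 23.9 and 26.1 CPM against 12.7 and 10.3 (1.09 ± 0.17, adjusted p = 0.000141). RPL17, a tunnel-exit protein, had 157 and 176 CPM against 82.1 and 79.6 (1.01 ± 0.13, adjusted p = 1.46e-05). Neither had passed with namoline or TCE-5002 alone (RPL17 0.11 and 0.24, RPL36A 0.34 and 0.20 on the log2 scale). RPS19, the small-subunit head protein most often mutated in Diamond-Blackfan anaemia, rose from 315 and 336 CPM to 518 and 522 (0.65 ± 0.12, adjusted p = 0.000375).

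The 3 members that fell with the combination were RPL10L, RPL22L1 and RPS29. RPL10L fell past 2-fold, as did 12.8% of all genes, with 4.37 and 3.95 CPM against 13.5 and 11.7 (-1.62 ± 0.23, adjusted p = 5.3e-05). RPL22L1, the paralogue of RPL22, had 137 and 139 CPM against 306 and 230 (-0.99 ± 0.17, adjusted p = 0.000317). RPS29, a zinc-binding protein of the small-subunit head, had 99.3 and 113 CPM against 179 and 138 (-0.61 ± 0.20, adjusted p = 0.0209), and 3 of the 4 libraries compared ended this call when left out singly, as did DESeq2. The groups did not overlap in any of these genes, but the share of all genes lying below in this way was not counted. The count of rising members ran from 12 (without replicate 2 of R1881) to 26 when single libraries were left out, and was 24 with plain library totals.

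In the LNCaP-labelled libraries 82 members were tested, RPL10L being the one left out by the filter. With the combination 64 of them rose and 2 fell at an adjusted p under 0.05, against 28% and 28.2% of the 17565 genes tested, and the median log2 fold change was 0.58 against -0.00. 13 members rose past 2-fold, 15.9% of those tested against 7.44% of all genes, and none fell as far, against 11.3%. Without the combination replicate whose header names namoline only, 66 rose, 18 members passed 2-fold and the median was 0.68. Without the other combination replicate 61 rose, 8 members passed 2-fold and the median was 0.44.

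RPL22L1 changed most in the LNCaP-labelled libraries, from 30.7 and 37.1 CPM to 124 and 175 (log2 fold change 2.20 ± 0.13, adjusted p = 4e-15). Both proteins of the 5S particle rose past 2-fold. RPL11 went from 429 and 445 CPM to 1018 and 1191 (1.397 ± 0.12, adjusted p = 9.3e-12). RPL5 went from 1241 and 1402 CPM to 2737 and 3295 (1.25 ± 0.13, adjusted p = 8.27e-10). RPS15A, a small-subunit protein, rose from 286 and 285 CPM to 635 and 772 (1.36 ± 0.12, adjusted p = 1.16e-11). RPL21 rose from 297 and 259 CPM to 550 and 780 (1.32 ± 0.13, adjusted p = 2.38e-10). RPL36A rose from 23.4 and 19.2 CPM to 43.8 and 56.4 (1.29 ± 0.14, adjusted p = 9.27e-10). The treated libraries lay above both R1881 libraries in each, as in 70 of the 82 members and 35.8% of all genes. Without replicate 1 of the combination these 6 log2 fold changes ran from 1.37 to 2.42 and kept their calls.

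RPS2 and RPL26L1 fell in the LNCaP-labelled combination. RPS2, one of the most abundant members, went from 4090 and 4336 CPM to 3143 and 2812 (-0.44 ± 0.13, adjusted p = 0.004), and this call was lost when a GC trend was removed (-0.23). RPL26L1 went from 46.3 and 50.0 CPM to 34.7 and 37.5 (-0.35 ± 0.12, adjusted p = 0.0105), not passing without replicate 2 of R1881. The 16 members that did not pass included RPS19, RPL13, RPL13A, RPL28, RPL36 and RPS15, with log2 fold changes between -0.21 and -0.03. Transcript GC content moved with the response here. Across the 82 members the Spearman rho between the log2 fold change and GC was -0.58, against -0.29 across all 17443 tested genes with a GC value, a description over genes that share libraries. The combination replicates also differed from each other along GC (rho 0.63 across genes). With the GC trend removed 69 members rose, 10 passed 2-fold and the median was 0.56. The part of GC in the single values was not tested further.

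The combination was next set against each inhibitor alone in C4-2. Against namoline, 11 of 82 members were higher and 7 lower at an adjusted p under 0.05, both below the 26.9% and 29% of all genes tested. RPL17 was higher with the combination (log2 difference 0.91 ± 0.12, adjusted p = 2.48e-05), and RPL7A lower (-0.68 ± 0.12, adjusted p = 0.000184). RPL3L was the only member lower past 2-fold (-1.33 ± 0.31, adjusted p = 0.00213), as were 14.7% of all genes. The count of higher members depended on the fit and reached 29 with the GC trend removed. Against TCE-5002, 27 members were lower and 6 higher, against 28.7% and 26.4% of all genes, with a median log2 difference of -0.24. The count of lower members was 48 without replicate 2 of TCE-5002, and 12 or 16 without either combination replicate. The 3 members lower past 2-fold (14.3% of all genes were) were led by RPL22L1 (-1.34 ± 0.18, adjusted p = 1.68e-05), followed by RPS29 (-1.17 ± 0.20, adjusted p = 0.000193) and RPL23A (-1.03 ± 0.11, adjusted p = 2.8e-06). The 6 higher members were RPL5, RPL6, RPL12, RPL17, RPL26L1 and RPL36A.

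Whether the inhibitors added up was tested by the interaction, the log2 effect of the combination minus the sum of the single effects. For the members it was mostly negative. At an adjusted p under 0.05, 38 of 82 were below 0 and 3 above it, against 27.9% and 25.6% of all genes, and the median was -0.45 against -0.01. RPL7A showed the strongest departure (interaction -1.74 ± 0.17, adjusted p = 8.64e-07). It stood at 1122 and 1236 CPM with the combination, between the R1881 libraries (1013 and 980) and the single treatments, the lowest of which held 1743 CPM. Its interaction ran from -1.84 to -1.57 over the alternatives and kept its call in each. The count of 38 ran from 20 (without replicate 1 of namoline) to 64 (without replicate 2 of TCE-5002) when single libraries were left out, and was 21 without replicate 2 of R1881 and 22 or 25 without either combination replicate.

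RPS15, a protein of the small-subunit head, had 353 and 328 CPM with namoline and 371 and 473 with TCE-5002, but 204 and 231 with the combination against 232 and 242 with R1881 alone (interaction -1.49 ± 0.18, adjusted p = 7.52e-06). RPL23A followed the same order, with 346 and 370 CPM in the combination against 387 and 378 with R1881 alone (interaction -1.46 ± 0.16, adjusted p = 2.83e-06). RPL22L1 (-1.32), RPS28 (-1.05), RPS26 (-1.03), RPL39 (-1.03) and RPS9 (-1.01) were the other members past 2-fold, which 18.6% of all genes were in this direction. The 3 members above 0 were RPL26L1 (0.86 ± 0.17, adjusted p = 0.000608), RPL10L (0.82 ± 0.33, adjusted p = 0.0499) and RPL17 (0.66 ± 0.18, adjusted p = 0.00551). That of RPL10L was lost in 8 alternatives, and none of the 3 was past 2-fold, as 16.7% of all genes were. The number past 2-fold was 8, but 4 with RLE scaling, with plain library totals and with DESeq2.

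**Figure D3:**
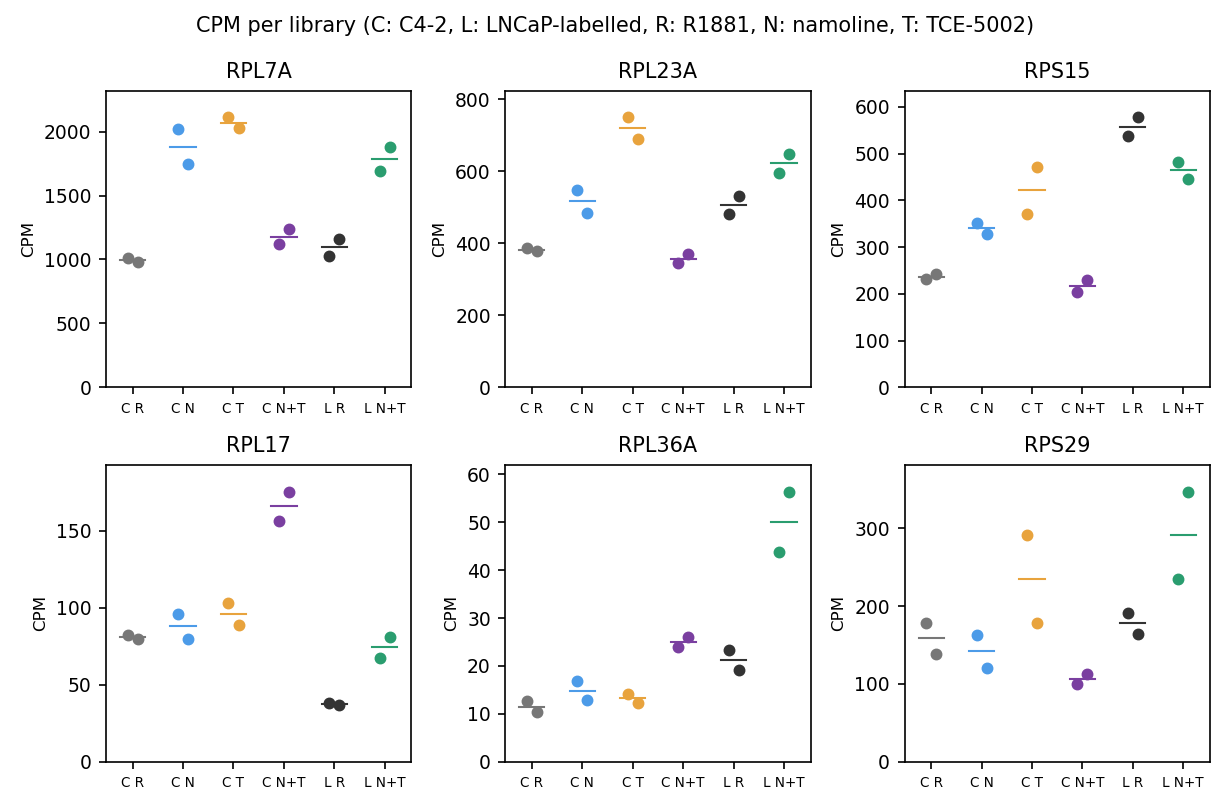
CPM per library (y axes, from 0) of 6 members in the 6 groups, with points for libraries and lines for the mean of 2 (C, C4-2, and L, LNCaP-labelled, with R, R1881 alone, N, namoline, and T, TCE-5002). RPL7A, RPL23A and RPS15 are high with either inhibitor alone and near R1881 with both, while RPL17 and RPL36A are high in C4-2 only with both and RPS29 is lowest there.

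The effect of the combination was compared between C4-2 and the LNCaP-labelled libraries by the interaction of treatment and line. Of the 83 members tested, the log2 fold change was lower in C4-2 for 40 and higher for 9 at an adjusted p under 0.05, against 25.9% and 21.7% of the 19763 genes tested. The median difference was -0.34, against -0.10 over all genes. The count of 40 ran from 25 (without replicate 1 of the LNCaP-labelled R1881 libraries) to 51 (without the combination replicate whose header names namoline only). RPL22L1 went in opposite directions and differed by -3.24 ± 0.19 on the log2 scale (adjusted p = 5.43e-12). RPL10L, which fell in C4-2, differed by -1.54 ± 0.55 (adjusted p = 0.0234), with 8 to 13 counts in each LNCaP-labelled library, and its call was lost in 3 alternatives. RPS29 (-1.43), RPL39 (-1.39), RPS21 (-1.14), RPS15A (-1.101) and RPL27 (-1.06) also differed past 2-fold, as did 13.9% of all genes in this direction. RPL39, a tunnel-exit protein, went from 227 and 191 CPM to 361 and 564 in the LNCaP-labelled libraries and had 85.6 and 57.7 against 58.3 and 75.5 in C4-2, where the groups overlapped.

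Of the 9 members with the higher log2 fold change in C4-2, none past 2-fold (11.4% of all genes were), RPS19 (0.68 ± 0.12, adjusted p = 3.62e-05) and RPL13 (0.66 ± 0.12, adjusted p = 5.91e-05) led. RPL13 went from 626 and 649 CPM to 935 and 997 in C4-2 and from 1756 and 1877 to 1612 and 1556 in the LNCaP-labelled libraries. The others included RPL8, RPL13A, RPL28, RPLP1 and RPS2, of which RPS2 fell in the LNCaP-labelled libraries and did not pass in C4-2 (0.10 ± 0.12, adjusted p = 0.524). RPL11 and RPL5 rose in both lines in the separate fits, with differences of -0.89 and -0.91 on the log2 scale (adjusted p = 4.43e-06 and 1.04e-05). Transcript GC content moved with the difference between lines (Spearman rho 0.41 across members, 0.18 across all genes with a GC value). With the GC trend removed, the difference was -0.70 for RPL11, -0.62 for RPL5 and 0.58 for both RPS19 and RPL13. The part of GC in these differences was not tested further.

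**Figure D4:**
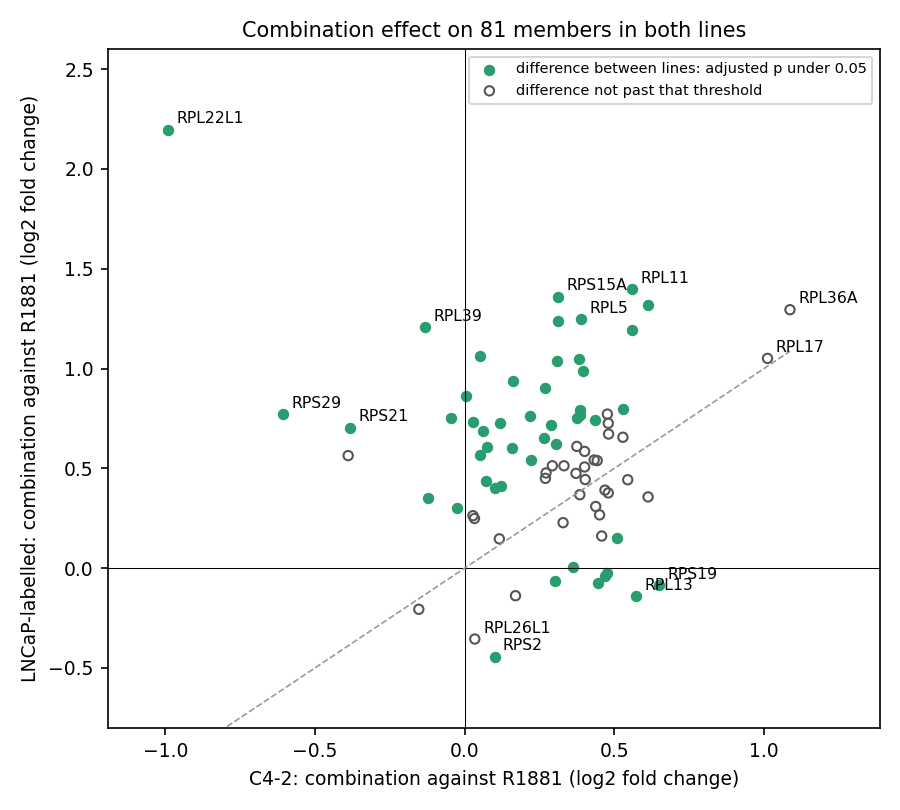
Log2 fold change with the combination in C4-2 (x axis) and in LNCaP-labelled libraries (y axis) for the 81 members tested in both, with a dashed line of equal change. Filled points differed between the lines at an adjusted p under 0.05. RPL22L1 lies at -0.99 and 2.20, and RPS19, RPL13 and RPS2 lie below the dashed line.

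With R1881 alone, 54 of 83 members were lower in C4-2 than in the LNCaP-labelled libraries and 10 were higher, against 39% and 37.8% of all genes tested, with a median log2 difference of -0.52. Both C4-2 libraries lay below both LNCaP-labelled ones in 62 of the 83, against 44.8% of all genes. Past 2-fold, 15 were lower and 3 higher, against 26.2% and 24.3% of all genes. RPL39L was the lowest (-8.62), with 0 and 0.065 CPM in C4-2 against 11.97 and 15.25. The size of that value rests on a C4-2 level near 0 and ran from -11.03 to -7.55 over the alternatives. RPS19 had 315 and 336 CPM in C4-2 against 1420 and 1514 (-2.14 ± 0.09, adjusted p = 1.28e-16). RPS2 had 976 and 964 CPM against 4090 and 4336 (-2.09 ± 0.09, adjusted p = 7.09e-16). RPL8 (-1.74), RPL39 (-1.51) and RPL13 (-1.48) followed. RPL22L1 was higher in C4-2, with 306 and 230 CPM against 30.7 and 37.1 (3.01 ± 0.14, adjusted p = 3.24e-15). RPL10L was higher as well, with 13.5 and 11.7 CPM against 0.419 and 0.592 (4.65 ± 0.27, adjusted p = 1.61e-13). This comparison shares its C4-2 and LNCaP-labelled control libraries with those above, and line and cell lineage cannot be told apart.

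Grouped by role, 38 of 51 large-subunit and 28 of 31 small-subunit genes rose with TCE-5002. The combination raised 26 and 11 of them in C4-2, and 39 and 25 in the LNCaP-labelled libraries. The stalk genes RPLP0, RPLP1 and RPLP2, which recruit elongation factors, all rose with the C4-2 combination. RPLP0 had 2132 and 2294 CPM against 1594 and 1573 there (0.46 ± 0.12, adjusted p = 0.00629). In the LNCaP-labelled libraries only RPLP2 of the 3 passed (0.37 ± 0.11, adjusted p = 0.00463), and RPLP1 had 1092 and 1152 CPM against 1166 and 1159. Of the 7 tunnel-exit genes, 5 rose with TCE-5002, 4 with the C4-2 combination and 6 with the LNCaP-labelled combination, none falling. Of 17 Diamond-Blackfan anaemia genes, 14 rose with TCE-5002, 8 with the C4-2 combination (RPS29 falling) and 14 with the LNCaP-labelled combination. Among all members the shares that rose were 80.5%, 45.1% and 78% in these 3 comparisons, against 19.9%, 24.8% and 28% of all genes, and no role group was tested against the other members.

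Other well-known members varied around the medians. RPSA, the laminin-receptor protein of the small subunit, had 742 and 683 CPM with R1881 alone, 1110 and 935 with TCE-5002 (0.52 ± 0.13, adjusted p = 0.00638) and 753 and 825 with the combination (0.12 ± 0.13, adjusted p = 0.457). RPS14, the gene lost in the 5q deletion of myelodysplasia, rose with TCE-5002 (0.76 ± 0.14, adjusted p = 0.000901) and stood at 628 and 627 CPM with the combination against 695 and 558. RPS4X rose in the LNCaP-labelled combination from 1337 and 1469 CPM to 2499 and 2844 (0.99 ± 0.12, adjusted p = 4.52e-08). RPS27A, made as a fusion with ubiquitin, had 512 and 528 CPM with the C4-2 combination against 545 and 456 (0.03 ± 0.17, adjusted p = 0.9) and rose in the LNCaP-labelled libraries (0.73 ± 0.12, adjusted p = 5.92e-06). RPS27 rose with TCE-5002 (0.55), after the combination in C4-2 (0.48, a call lost in 4 alternatives) and the LNCaP-labelled combination (0.77).

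The paralogues are set beside their partners here, with no test of the difference within a pair. RPL10L, an intronless near copy of RPL10, fell with each C4-2 treatment, while RPL10 rose with TCE-5002 (955 and 903 CPM against 656 and 659, adjusted p = 0.00462) and with the combination (874 and 933 CPM, adjusted p = 0.00744, lost in 3 alternatives). Per exonic kilobase, RPL10L made up 10.9% and 9.55% of the pair with R1881 alone in C4-2 and 2.89% and 2.45% with the combination. RPL10 was divided by 4825 exonic bases and RPL10L by 812, so these percentages depend on the annotated exons. By CPM, RPL10L had 13.5 and 11.7 against 656 and 659 for RPL10 with R1881 alone. RPL22L1 made up 70.8% and 65.4% of its pair with RPL22 in C4-2 with R1881 alone and 51% and 47.8% with the combination, where RPL22 had 276 and 319 CPM against 267 and 256. In the LNCaP-labelled libraries it made up 18.5% and 20.4% and then 40.4% and 43.6%, and RPL22 rose as well (0.60 ± 0.11, adjusted p = 3.09e-05). RPL22 was divided by 4900 exonic bases and RPL22L1 by 2326, so these percentages too depend on the annotated exons. By CPM in C4-2, RPL22L1 had 306 and 230 with R1881 alone, against 267 and 256 for RPL22. With the combination it had 137 and 139 CPM there, against 276 and 319 for RPL22. RPL39L, a relative of RPL39 best known from testis and tumour cells, had 1 count over all 8 C4-2 libraries and 257 to 477 counts in each LNCaP-labelled library. There it rose with the combination from 11.97 and 15.25 CPM to 20.6 and 24.2 (0.78 ± 0.15, adjusted p = 4.94e-05), as RPL39 did, and made up 9.61% and 13.9% of the pair per exonic kilobase before and 10.3% and 7.98% after.

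RPL26L1 had 54.9 and 56.9 CPM with the C4-2 combination against 56.6 and 50.5 with R1881 alone (log2 fold change 0.03 ± 0.12), while RPL26 rose (0.48 ± 0.16, adjusted p = 0.0226, lost in 4 alternatives). RPL7L1 rose with namoline and did not pass with TCE-5002 (0.30 ± 0.12, adjusted p = 0.0507), where it gained a call in 4 alternatives. RPL7 rose in the LNCaP-labelled combination from 900 and 953 CPM to 1639 and 2015 (1.04 ± 0.12, adjusted p = 1.46e-08). RPL3 rose in all 4 comparisons with R1881, by 0.50, 0.38, 0.40 and 0.51 on the log2 scale, with the call lost in 2 alternatives for namoline and in 3 each for TCE-5002 and the C4-2 combination. Near-identical copies limit these counts: 1599 annotated genes carry a pseudogene symbol built on a member's name, most for RPL21 (133), RPL23A (91) and RPL7A (80), and fragments that align to several places or genes were left uncounted. RPL17 and RPS10 share 32.7% and 28.8% of their exonic bases with the readthrough genes RPL17-C18orf32 and RPS10-NUDT3 and other genes on the same strand. RPL36A shares 8.4% with the readthrough gene RPL36A-HNRNPH2 and has 52 pseudogene symbols. Counting set no strand option, so exons that overlap opposite-strand genes are limited too, such as 52.7% of RPL10 and 21.4% of RPS28. The levels and calls of these genes and of the paralogues are therefore uncertain.

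**Figure D5:**
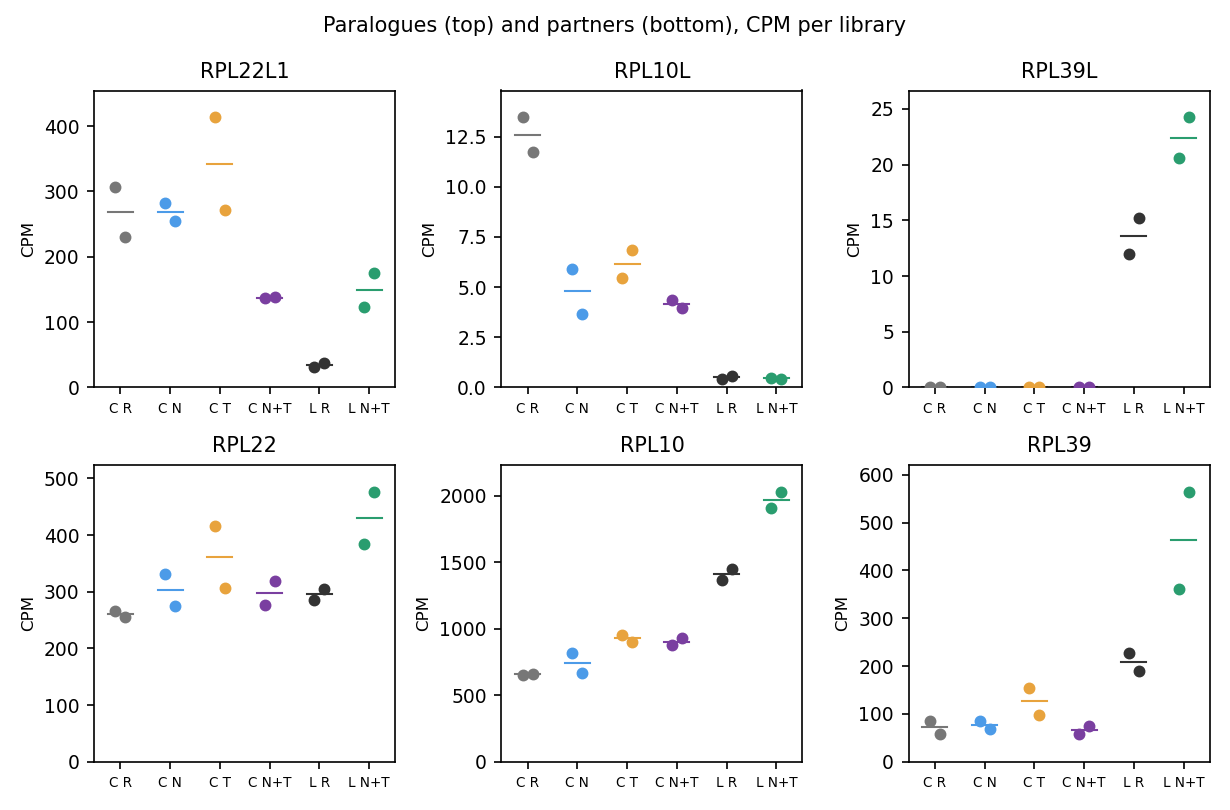
CPM per library (y axes, from 0) of 3 paralogues in the upper row and their partners in the lower row. RPL22L1 falls with the C4-2 combination and rises with the LNCaP-labelled one, RPL10L is above 11 CPM only in C4-2 with R1881 alone, and RPL39L is at or near 0 in C4-2. Groups are abbreviated as in the earlier panels (C, L, R, N and T).

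Levels differed widely between members. Per exonic kilobase, and averaged over the 6 groups, the highest were RPS18 (1060 CPM per kb), RPS27 (989), RPS12 (978), RPS6 (940) and RPS2 (805). The lowest were RPL3L (0.689), RPL39L (5.67), RPL36A (5.71), RPL10L (5.88) and RPS10 (16.6). Exonic kilobases are the union of all annotated exons, so genes with long rare isoforms, pseudogene copies or readthrough partners appear lower. RPS18 had 1487 and 1375 CPM with R1881 alone, 2274 and 1910 with TCE-5002 (0.55 ± 0.15, adjusted p = 0.00924) and 1729 and 1784 with the combination (0.27 ± 0.15, adjusted p = 0.137). RPS12 rose with TCE-5002 (0.70 ± 0.15, adjusted p = 0.00251). RPS6 rose with the C4-2 combination, from 1985 and 1901 CPM to 2644 and 2762 (0.45 ± 0.14, adjusted p = 0.0169), a call lost in 5 alternatives, with values of 0.32 to 0.54 over all of them run. RPS10 rose with TCE-5002, from 17.06 and 14.96 CPM to 28.8 and 27.9 (0.82 ± 0.15, adjusted p = 0.000604).

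Members were also grouped by their start site. Those with a pyrimidine start in the table had a median log2 fold change of 0.57 with TCE-5002 (48 genes), against 0.41 in the 18 without, and 41 and 12 of them rose. With the C4-2 combination the medians were 0.32 and 0.28, and with the LNCaP-labelled combination 0.54 and 0.65, the last over 17 genes. With namoline 9 of the 48 rose and none fell, while 6 of the 18 rose and 2 fell. The 2 that fell were the paralogues RPL10L and RPL26L1, so this grouping also divides paralogues from other members in part. No test was made of these differences.

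Other genes of ribosome production and use were counted for comparison. Beside the counts that follow, the shares of all genes that rose and fell were 18.7% and 16.3% with namoline, 19.9% and 16.7% with TCE-5002, 24.8% and 25.6% after the combination in C4-2, and 28% and 28.2% after it in the LNCaP-labelled libraries. Of 29 further genes with TOP mRNAs (elongation factors, EIF3 subunits and snoRNA hosts), 28 were tested. With TCE-5002 11 rose and 5 fell (median 0.30), with the C4-2 combination 17 rose and 1 fell (0.39), and with the LNCaP-labelled combination 24 rose and none fell (0.61). Of 52 ribosome assembly genes, 37 rose with namoline and 1 fell (median 0.50), while 20 rose and 2 fell with TCE-5002, 24 and 1 after the combination in C4-2, and 33 and 9 with the LNCaP-labelled combination. Namoline thus had a higher median in the assembly genes than in the ribosomal protein genes (0.20), a comparison of 2 medians without a test.

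The 78 mitochondrial ribosomal protein genes, which serve the separate ribosome of mitochondria, gave 33 rising and 2 falling with TCE-5002 (median 0.30), 25 and 15 with the C4-2 combination (0.17), and 31 and 25 with the LNCaP-labelled combination (0.09), the last 2 nearer to those shares of all genes than the first. Among 15 RNA polymerase I genes, which transcribe ribosomal RNA, 8 rose and 1 fell with the C4-2 combination, and 4 rose and 3 fell with the LNCaP-labelled one, the latter near the share of all genes. Of 20 genes of mTORC1 and TOP control, 3 rose and 6 fell with the C4-2 combination (median -0.09) and 8 rose and 7 fell with the LNCaP-labelled one (-0.06). Of 11 genes of ribosome quality control and rescue, 7 rose with the C4-2 combination and none fell (median 0.70), while 1 rose and 4 fell with TCE-5002 (-0.09). In this list 3 rose and 4 fell with namoline (-0.15), and 4 rose and 4 fell with the LNCaP-labelled combination (-0.07).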

How the data were processed

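Paired-end reads of polyadenylated RNA were trimmed (TrimGalore), aligned to GRCh38 (STAR) and assigned to genes (featureCounts 1.5.0-p1) by the authors. The deposited values are raw counts of fragments per gene, 1 file per library, totalling 14791602 to 20690819. No strand option was set per the file headers. GEO's treatment field describes siRNA work, so groups were read from titles. Nothing in the labels ties replicates to separate cultures, although the methods call them biological, so p-values measure the spread between these libraries.

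Biotypes came from GENCODE 29. Symbols came from a separate gene name reference, and from GENCODE 29 where that had none. Genes were kept with filterByExpr, scaled by TMM and tested with edgeR 4.0.16 (quasi-likelihood F test, R 4.3.3), p-values adjusted by Benjamini-Hochberg over every gene tested. C4-2 was fitted on 8 libraries, LNCaP-labelled on 4, and both lines on 8. "Past 2-fold" means an adjusted p under 0.05 and at least a 2-fold change, "rose" or "fell" an adjusted p alone. CPM used TMM factors over 12 libraries, and values in pairs are replicates 1 and 2. Each standard error is the log2 fold change divided by the root of its F. Steps were tested on simulated data. Alternatives were RLE, plain totals, TMM without members, no filter, DESeq2 1.42.0, the replicate block, length and GC trends (GC known for at least 99.1% of genes), single libraries left out and separate fits.

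Members and lists were chosen with earlier results of these data known. Named were members past 2-fold in a comparison with R1881 (6 at most per direction), the 3 most changed per direction there, the 2 most changed per direction in the interaction, line difference and baseline, fixed well-known genes and paralogues, and the 5 highest and lowest per kilobase. Other names (RPL6, RPL8, RPL12, RPL13A, RPL27, RPL28, RPL36, RPS9, RPS21 and RPS26) were chosen after their values were seen. Some single-gene values are not reported here.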

Additional observations from a re-analysis of the deposited data

Results flagged for a closer look

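The effect of the combination differed between C4-2 and the LNCaP-labelled libraries for some members, by edgeR's test of the difference itself. At an adjusted p under 0.05, the log2 fold change was lower in C4-2 for 40 of 83 members and higher for 9. Over all genes tested these shares were 25.9% and 21.7%. Past 2-fold, the differences (C4-2 minus LNCaP-labelled, log2) were -3.24 for RPL22L1, -1.54 for RPL10L, -1.43 for RPS29, -1.39 for RPL39, -1.14 for RPS21, -1.101 for RPS15A and -1.06 for RPL27. These made up 8.43% of the members, fewer than the 13.9% of all genes. RPL10L had only 8 to 13 counts in each LNCaP-labelled library, and its call was lost in 3 alternatives. Without the LNCaP-labelled combination replicate whose header names namoline only, the difference of RPL22L1 was -3.48.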

How the results depend on the processing

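Of the alternatives tried for the named genes, 3177 left the call as it was, 232 ended it, 132 gained one and 2 turned the direction (RPL26L1 to -0.27 and RPS27 to -0.45 in the R1881 comparison of the lines with an exon length trend removed, neither called in the reported fit). The count of members rising with namoline (19) was 9 with plain library totals, 33 with the GC trend removed and 30 when fitted on its own libraries. With the C4-2 combination it was 24 rather than 37 with plain totals. Members past 2-fold with TCE-5002 were 1 rather than 2 with plain totals or the length trend removed. Members higher in the combination than in namoline (11) were 18 without the filter, 17 by DESeq2, 23 with the length trend removed (2 then past 2-fold rather than 1), 29 with the GC trend removed and 24 on their own libraries. The interaction past 2-fold (8 members) gave 4 with RLE, plain totals or DESeq2 and 5 with the length trend removed or members left out of TMM. The cause was not tested.

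The labels do not say that replicate numbers mark a shared batch, and not every pair of groups deviated together. Same-numbered deviations correlated by 0.28, 0.47 and 0.46 across genes among R1881, namoline and TCE-5002 in C4-2 (0.56, 0.70 and 0.50 over the members), by 0.18, -0.03 and 0.15 between these and the combination (-0.01, 0.16 and -0.06), and by 0.05 in the LNCaP-labelled libraries (-0.48). A partial pairing was not tested further. With the replicate block, in C4-2 the rising members numbered 26 for namoline, 71 for TCE-5002 and 52 rather than 37 for the combination, 64 with the LNCaP-labelled combination, and 21 were higher in the combination than in namoline.

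Leaving out single libraries gave these ranges. Rising members ran from 4 to 13 with namoline, 33 to 76 with TCE-5002, 12 to 26 with the C4-2 combination, 59 to 66 with the LNCaP-labelled combination and 3 to 22 against namoline. Lower members ran from 12 to 48 against TCE-5002, 20 to 64 for the interaction, 25 to 51 for the line difference and 50 to 58 for the lines under R1881. Members past 2-fold ran from 1 to 4 with TCE-5002, 8 to 18 with the LNCaP-labelled combination, 1 to 5 against TCE-5002, 0 to 2 against namoline, 5 to 15 for the interaction and 3 to 13 for the line difference. The share ratio ran from 0.954 to 1.16 with namoline, where it turned direction without replicate 1. With 1 library left in a group, its spread was taken from the other groups. Medians over the members stayed above 0 in each comparison with R1881 (lowest 0.03 with namoline and 0.24 with the C4-2 combination). Plain library totals lowered the medians to 0.05, 0.46, 0.19 and 0.46 in the 4 comparisons with R1881.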
